A study of Mus musculus with 9 samples.

Results

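The type IV, XV and XVIII collagens and the nidogens of the basement membrane were followed in whole mouse kidneys at embryonic day E15.5 from the *Ntn1* conditional deletion series. The set was chosen by name and holds 10 of the 24138 loci in the deposited table: *Col4a1*, *Col4a2*, *Col4a3*, *Col4a4*, *Col4a5*, *Col4a6*, *Col15a1*, *Col18a1*, *Nid1* and *Nid2*. Bulk RNA-seq was available for 9 libraries, 3 of each of 3 genotypes on a C57Bl6/J background. MUT kidneys were *Foxd1GC/+;Ntn1fl/fl*, HET kidneys were *Foxd1GC/+;Ntn1fl/+* and WT kidneys were *Ntn1fl/fl* with no Cre. *Foxd1GC* places a GFP-Cre fusion in the *Foxd1* gene of stromal progenitors, so HET and MUT kidneys both carry Cre and 1 disrupted *Foxd1* allele, and all 3 genotypes carry at least 1 floxed *Ntn1* allele. Cre acts in cells that express or have expressed *Foxd1*. Sexes were mixed and kidneys came from 3 crosses. Expression is given as FPKM (fragments scaled by transcript length and by the mapped fragments of the library), which so allows levels to be compared between genes.

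Basement membranes are thin sheets of matrix under epithelia and around vessels. Type IV collagen chains wind into triple helices that join into a network, and nidogens link that network to the laminin network. *Col4a1* and *Col4a2* encode the chains of the trimer found in nearly all basement membranes. *Col4a3*, *Col4a4* and *Col4a5* encode the chains of the trimer that takes over in the maturing glomerular basement membrane, where it is made by podocytes, and *Col4a5* with *Col4a6* forms a further trimer found in Bowman's capsule and some tubules. *Col15a1* and *Col18a1* encode collagens that carry heparan or chondroitin sulfate chains and sit at the edge of basement membranes, and the carboxyl end of the *Col18a1* product is released as endostatin.

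The libraries were first checked against their labels. Summed FPKM ran from 453753 to 545598 per library, and relative depth, estimated from the lowest FPKM in each library and set to 1 for WT-1, ran from 0.578 to 1.27. *Ntn1*, the floxed gene, was at 17.9 to 28.9 FPKM in WT, 12.02 to 16.5 in HET and 10.8 to 16.5 in MUT libraries, so it separated WT from the Cre carriers but not HET from MUT. *Foxd1* was at 25.8 to 33.7 FPKM in WT and 20.2 to 24.8 in the Cre carriers. Markers of endothelium, stroma, podocytes, nephron progenitors and ureteric epithelium were present in each library. In HET-2 the summed FPKM of 6 liver markers was 704.9, against 27.2 to 52.2 in the other 8 libraries, so each comparison with HET was also made without it. In bulk samples, fewer cells of a type and less RNA per cell cannot be told apart.

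The 6 type IV collagen genes lie in 3 pairs of neighbours on opposite strands, and stretches at or between their starts are shown. In the deposited mm10 coordinates, *Col4a1* (chr8:11198423-11312826) and *Col4a2* (chr8:11312829-11449287) start 2 bases apart. In RefSeq (GRCm38.p6) *Col4a2* begins earlier, so that the first exons of both genes share 22 bases; 30 bases from that start, chr8:11312805-11312834 on the plus strand, are shown first. *Col4a4* (chr1:82450723-82586849) and *Col4a3* (chr1:82586921-82722059) are 71 bases apart, and chr1:82586850-82586920 on the plus strand, the whole interval, is shown second. *Col4a6* (chrX:141165403-141474076) and *Col4a5* (chrX:141475419-141689235) are 1342 bases apart, and each has a stretch of its own, chrX:141475169-141475409 on the plus strand for *Col4a5* and chrX:141474077-141474326 on the minus strand for *Col4a6*. All are RefSeq promoter sequence of GRCm38.p6, 5′ to 3′, with capitals marking GGGCGG (GC box) or CCAAT on either strand.
Col4a1/Col4a2: agtgcgcGGGCGGcgtctccaaggggagga
Col4a4/Col4a3: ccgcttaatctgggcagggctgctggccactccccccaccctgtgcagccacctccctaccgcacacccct
Col4a5: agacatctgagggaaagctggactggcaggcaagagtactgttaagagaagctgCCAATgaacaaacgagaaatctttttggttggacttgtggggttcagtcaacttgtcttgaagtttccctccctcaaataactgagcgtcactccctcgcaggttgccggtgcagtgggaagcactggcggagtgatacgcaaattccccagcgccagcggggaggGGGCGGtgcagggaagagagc
Col4a6: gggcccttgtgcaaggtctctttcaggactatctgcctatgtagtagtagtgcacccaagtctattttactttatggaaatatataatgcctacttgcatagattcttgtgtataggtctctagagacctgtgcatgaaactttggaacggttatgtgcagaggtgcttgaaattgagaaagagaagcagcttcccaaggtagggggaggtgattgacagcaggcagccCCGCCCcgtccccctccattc

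The 30 bases at the *Col4a1* and *Col4a2* starts held 73.3% G and C and 1 GC box, the *Col4a4* and *Col4a3* interval held 69.0% and no match, and the *Col4a5* and *Col4a6* stretches held 54.4% and 47.6% with 1 GC box each. A TATAAA match was in none of the 4. RefSeq windows from 250 bases before to 50 after the start were found for 8 of the 10 genes (9 windows). GGGCGG was in 6 of those 9 windows, CCAAT in 5 and TATAAA in 0, against 35.7%, 37.4% and 13.6% of all 32851 windows. The *Col4a1* and *Col4a2* windows overlap and share the GC box shown, and *Col18a1* has more than 1 window. The 9 windows are therefore not independent. A match is a description of the sequence only.

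Levels of the 10 genes spanned a wide range. Averaged over 9 libraries, *Col4a1* was at 174 FPKM, followed by *Col4a2* at 85.3, *Col18a1* at 83.4, *Nid1* at 57.6, *Nid2* at 39.1, *Col15a1* at 21.9, *Col4a5* at 14.2, *Col4a6* at 1.82, *Col4a4* at 1.09 and *Col4a3* at 0.789. *Col4a1* stood above 98.3% of all loci. Most neighbours in this order kept their places in 9 of 9 libraries. The exceptions were *Col4a2* and *Col18a1*, whose order held in 7 of 9, and *Col4a6* with *Col4a4* and *Col4a4* with *Col4a3*, whose order held in 8 of 9. The 3 genes with means under 2 FPKM fell below the 5 FPKM minimum used for the model, so 7 genes were tested with limma and all 10 with an exact permutation test. The permutation test of 3 libraries against 3 cannot give a two-sided p under 0.1, and 30 such tests were made.

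**Figure D1:**
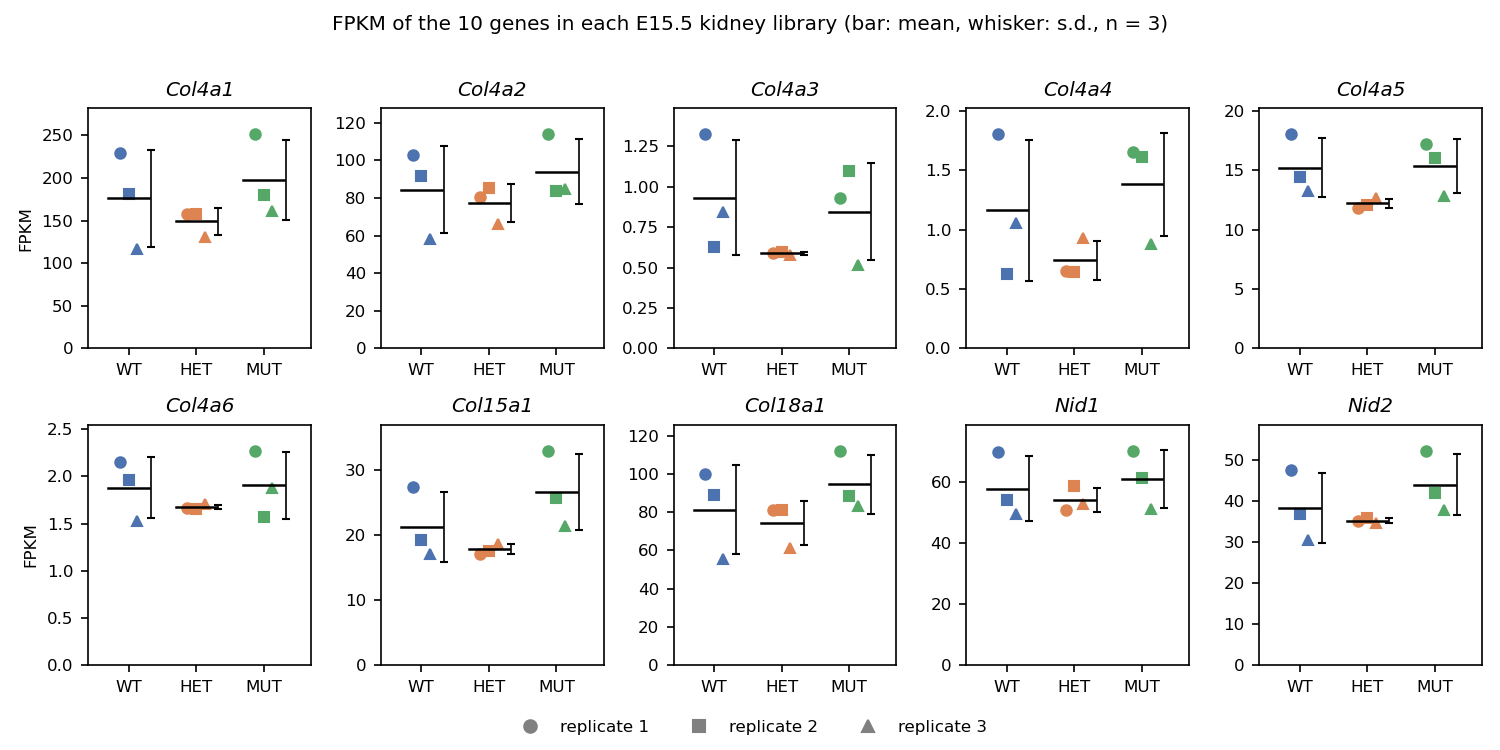
FPKM (vertical axes, linear from 0, a separate scale for each gene) of the 10 genes in WT, HET and MUT libraries, with a marker shape for each replicate number, a bar for the mean and a whisker for the s.d. (n=3). HET libraries lie close together for most genes, and MUT-1 and WT-1 are at or near the top of nearly every panel.

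The study's main contrast was MUT against HET, which share Cre and the *Foxd1* allele and differ in the second *Ntn1* allele. *Col4a1* was at 251, 180.4 and 161 FPKM in MUT-1, MUT-2 and MUT-3 and at 158, 158 and 131 in the HET libraries. All 3 MUT libraries were above all 3 HET libraries, with the closest pair only 1.02-fold apart. The means were 198±47.5 and 149±15.6 (mean±s.d., n=3), a log2 fold change of 0.38 (SE 0.17, limma unadjusted p=0.0465, adjusted p=0.738). Its partner *Col4a2* was at 114, 83.5 and 84.7 FPKM in MUT and 80.8, 85.1 and 66.1 in HET. These groups overlapped, because HET-2 was above MUT-2 and MUT-3, and the log2 fold change of 0.27 (SE 0.15) had an adjusted p of 0.738 in limma. After correction for GC content and transcript length the log2 fold change of *Col4a1* was 0.24 and that of *Col4a2* was 0.07, and without MUT-1 they were 0.20 and 0.13.

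*Col4a5* was at 17.2, 16.0 and 12.8 FPKM in MUT and 11.8, 12.1 and 12.6 in HET, so the groups did not overlap but MUT-3 exceeded HET-3 by just 1.01-fold. The log2 fold change was 0.30 (SE 0.12, limma unadjusted p=0.0297, adjusted p=0.738). *Col4a6* was at 2.27, 1.57 and 1.88 FPKM in MUT and 1.67, 1.66 and 1.70 in HET. MUT-2 was below all HET libraries and the exact permutation p was 0.4. Both genes are on chromosome X and kidneys of both sexes were used, and the part of sex in these values was not tested.

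*Col4a3* and *Col4a4*, which with *Col4a5* encode the glomerular chains, were low throughout. *Col4a4* was at 1.65, 1.61 and 0.881 FPKM in MUT and 0.651, 0.644 and 0.927 in HET. MUT exceeded HET in 8 of 9 library pairs, MUT-3 being below HET-3, and the ratio of means was 1.86 (exact permutation p=0.2). With the minimum lowered to 1 FPKM, limma gave *Col4a4* a log2 fold change of 0.44 (SE 0.16, unadjusted p=0.0230, adjusted p=0.775). *Col4a3* was at 0.930, 1.09 and 0.514 FPKM in MUT and 0.590, 0.597 and 0.575 in HET, and here MUT-3 was below the whole HET range (exact permutation p=0.4). Summed FPKM of 7 podocyte markers moved with these chains. It was highest in WT-1 at 229, MUT-2 at 204 and MUT-1 at 198, the same 3 libraries in which *Col4a4* exceeded 1.6 FPKM, and lay between 127 and 169.6 in the other 6. The part of podocyte RNA in the *Col4a3* and *Col4a4* values was not tested.

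The *Col15a1* difference was the largest of the 7 tested genes. It was at 32.99, 25.7 and 21.4 FPKM in MUT and 17.1, 17.6 and 18.6 in HET, and the closest MUT and HET libraries were 1.15-fold apart. The means of 26.7±5.87 and 17.8±0.770 (n=3) gave a ratio of 1.5 and a log2 fold change of 0.54 (SE 0.14, limma unadjusted p=0.00304, adjusted p=0.738). It was 0.45 after the GC content and length correction and 0.38 without MUT-1. *Col18a1* was at 112, 88.2 and 83.3 FPKM in MUT and 80.9, 81.1 and 61.2 in HET. The groups did not overlap, and the log2 fold change was 0.34 (SE 0.16, limma unadjusted p=0.0501, adjusted p=0.738). It was 0.16 after the GC content and length correction and 0.21 without MUT-1.

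The nidogens bridge the laminin and collagen networks. *Nid2* was at 52.2, 41.9 and 37.8 FPKM in MUT and 35.1, 35.9 and 34.6 in HET. All MUT libraries were above all HET libraries, and the log2 fold change was 0.30 (SE 0.13, limma unadjusted p=0.0399, adjusted p=0.738), or 0.17 without MUT-1. *Nid1* was at 70.3, 61.5 and 51.1 FPKM in MUT and 51.0, 58.7 and 52.7 in HET. Here MUT-3 lay within the HET range, and the log2 fold change was 0.16 (SE 0.13, limma adjusted p=0.777), 0.07 after the GC content and length correction and 0.05 without MUT-1.

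None of the 7 tested genes passed limma's adjusted threshold in MUT against HET, nor did any of the 10081 loci (0%), of which 636 had an unadjusted p under 0.05. The mean was higher in MUT for 7 of 7 genes, while 45.9% of all loci were higher. The median log2 fold change was 0.30, against -0.02 over all loci tested. MUT and HET did not overlap for 5 of 7, MUT being higher, against 5.19% of all loci, and the ratio of means reached 1.2 for 6 of 7, against 7.29%. An unadjusted p under 0.05 in the higher direction was found for 4 of 7, against 3.68%. The genes vary together between libraries, so these counts are not independent observations. Without HET-2 the median was 0.34 and 6 of 7 genes did not overlap. Without MUT-1 the median was 0.20 and 5 of 7 did not overlap, and after the GC content and length correction these values were 0.20 and 4 of 7. Groups with a library left out separate more easily. The share of all loci without overlap was not computed for these alternatives, so 5.19% is not their baseline.

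**Figure D2:**
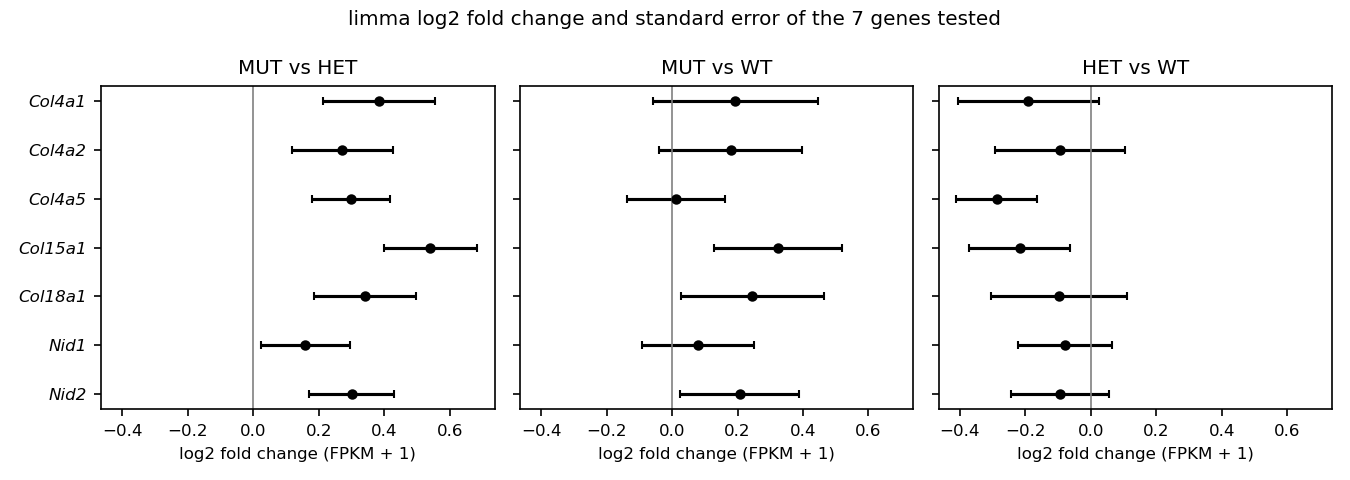
limma log2 fold change on log2(FPKM + 1) (horizontal axis) with its standard error (whiskers) for the 7 tested genes in the 3 comparisons, the vertical line marking 0. All 7 points are right of 0 in MUT against HET (0.16 to 0.54) and in MUT against WT (0.01 to 0.32), and left of 0 in HET against WT (-0.29 to -0.08), and none passed the adjusted threshold.

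WT kidneys, which lack Cre, spread more widely than HET kidneys for each of the 10 genes. *Col4a1* was at 230, 182 and 117 FPKM in WT-1, WT-2 and WT-3, so the WT range took in all HET values and 2 of the 3 MUT values. *Col4a2* followed the same order, at 103, 91.8 and 58.5 FPKM, and so did *Col18a1*, at 99.8, 88.7 and 55.5. In both, WT-3 was below every HET and MUT library. *Nid1* was at 69.8, 54.0 and 49.4 FPKM in WT and *Nid2* at 47.4, 36.9 and 30.4, again with WT-3 below every other library. Of the low chains, *Col4a4* was at 1.80, 0.625 and 1.06 FPKM in WT and *Col4a6* at 2.15, 1.96 and 1.53, and the WT and MUT values of both overlapped (exact permutation p=0.7 and p=0.9).

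*Col15a1*, the gene with the largest log2 fold change in MUT against WT too, was at 27.4, 19.2 and 17.1 FPKM in WT. It overlapped both other genotypes, and MUT exceeded WT by 1.26-fold in the mean (log2 fold change 0.32, SE 0.20, limma adjusted p=0.9998). The remaining log2 fold changes in MUT against WT were 0.25 for *Col18a1*, 0.21 for *Nid2*, 0.19 for *Col4a1*, 0.18 for *Col4a2*, 0.08 for *Nid1* and 0.01 for *Col4a5*. limma called 0 of 7 genes and 0% of 10096 loci, with 65 loci at an unadjusted p under 0.05. MUT and WT did not overlap for 0 of the 10 genes (1.32% of loci were higher without overlap), 0 of 7 had an unadjusted p under 0.05 (0.307% of loci, higher), the ratio reached 1.2 for 1 of 7 (1.85%), and 7 of 7 means were higher in MUT, against 48.7% of loci. For *Col15a1* limma gave an unadjusted p of 0.131, and of 0.00969 (adjusted p=0.995) when a replicate block was added. Whether replicate numbers pair the libraries is not stated, so the block may not apply. The median of 0.19 depended on single libraries. It was -0.02 without WT-3, 0.03 without MUT-1, 0.31 without MUT-3 and 0.37 without WT-1. Without WT-3 the log2 fold changes of 5 genes (*Col4a1*, *Col4a2*, *Col4a5*, *Col18a1* and *Nid1*) were below 0.

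HET against WT adds Cre and the *Foxd1* insertion to the loss of 1 *Ntn1* allele, which cannot be told apart. *Col4a5* was at 18.0, 14.4 and 13.2 FPKM in WT, above all 3 HET libraries. Its log2 fold change was -0.29 (SE 0.12, limma unadjusted p=0.0420, adjusted p=0.998). *Col4a3* was at 1.32, 0.630 and 0.845 FPKM in WT and was also lower in all HET than in all WT libraries, with a ratio of 0.63 (exact permutation p=0.1, the smallest possible). These were 1 of 7 tested genes and 2 of all 10 without overlap, against 1.06% of loci that were lower in this way. *Col4a5* was also the 1 gene of 7 with an unadjusted p under 0.05 and a mean lower by 1.2-fold or more, which 0.524% and 4.26% of loci showed. limma called 0 of 7 genes and 0% of 10105 loci, with 108 loci at an unadjusted p under 0.05. The 7 log2 fold changes were all below 0, as were 47.6% of all loci, with a median of -0.10 against 0.01 over all loci. The median was 0.06 without WT-1, -0.35 without WT-3, -0.16 without HET-1 and -0.17 without HET-2. Since the 3 comparisons share libraries, their directions are not independent of each other.

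The 7 tested genes varied together from library to library. MUT-1 was the highest library for 6 of them, *Col4a5* being highest in WT-1, and WT-3 was the lowest for 5. Over all loci with a mean of at least 5 FPKM, 15.6% were highest in MUT-1 and 19.6% were lowest in WT-3. With each gene set around its own mean on the log2 scale, the median of the 7 was 0.30, 0.03 and -0.33 in WT-1, WT-2 and WT-3. In HET it was -0.14, -0.10 and -0.19, and in MUT 0.44, 0.11 and -0.03. The spread within WT was wider than the distance between any pair of genotype averages. HET had the smallest s.d. of the 3 genotypes on this scale for 9 of the 10 genes, against 58.3% of all loci, and its coefficient of variation ran from 1.48% for *Col4a6* to 21.8% for *Col4a4*. The highest library exceeded the lowest by 1.92-fold in the median of the 7 genes and by 1.41-fold in the median of all loci. All 10 transcripts are long, between 4876 and 10108 bases, which is longer than 78.3% to 98.1% of loci. Relative depth was 1, 0.578 and 0.979 in WT-1, WT-2 and WT-3, 0.901, 1.11 and 1.05 in the HET libraries and 1.27, 1.08 and 0.611 in the MUT libraries, and its part in these values was not tested.

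**Figure D3:**
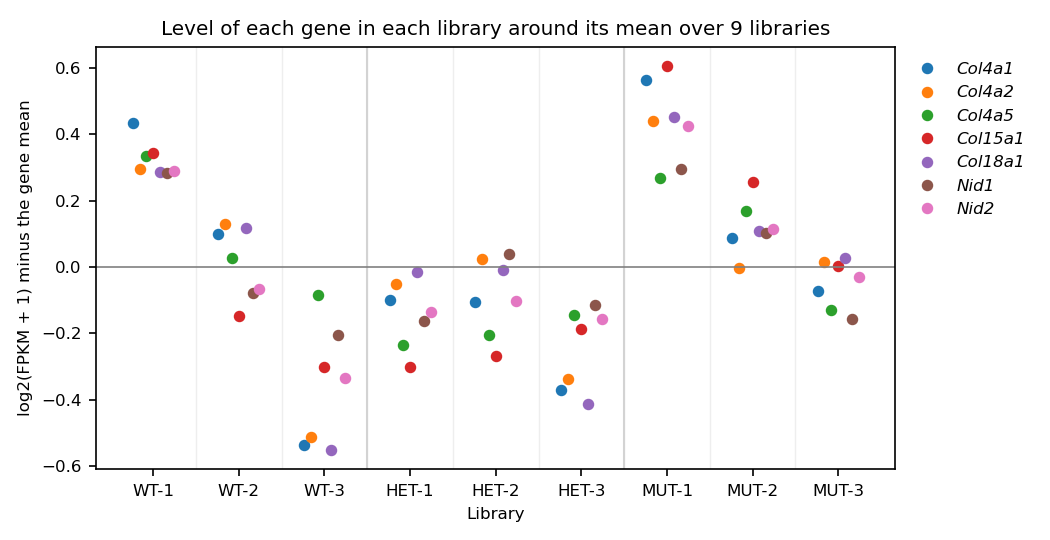
Level of the 7 tested genes in each library as log2(FPKM + 1) minus the mean of that gene over 9 libraries (vertical axis, 0 is the gene mean), libraries along the horizontal axis and genes by colour. All 7 genes are above 0 in WT-1 and MUT-1 and below 0 in WT-3.

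Ratios within a library show how far paired genes kept in step. *Col4a1* to *Col4a2* was 2.03 in the mean and ranged from 1.85 to 2.23, a coefficient of variation of 6.63%, against 24.8% and 19.8% for the genes themselves. *Nid1* to *Nid2*, which lie on different chromosomes (chr13:13437602-13512275 and chr14:19751257-19823823), gave a mean of 1.48 and a coefficient of variation of 6.83%. *Col4a1* to *Col18a1* (chr10:77052179-77166530) gave 6.27%. *Col4a5* to *Col4a6* ranged from 6.80 to 10.2, a coefficient of variation of 13.5%. *Col15a1* (chr4:47208012-47313165) kept less closely to *Col4a1*, at 12.8%.

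*Col4a3* to *Col4a4* was 0.563, 0.680 and 0.583 in MUT, 0.907, 0.928 and 0.620 in HET and 0.735, 1.01 and 0.800 in WT. The MUT ratios were all below the WT ratios (0.609±0.0622 and 0.847±0.142, n=3, exact permutation p=0.1, the smallest possible) but overlapped HET (exact permutation p=0.2). The difference in log2 ratio between MUT and WT was -0.47, and -0.22 when a pseudocount of 1 was added to both genes, which are near 1 FPKM. Of the 12 ratio tests, no other reached the smallest possible p.

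**Figure D4:**
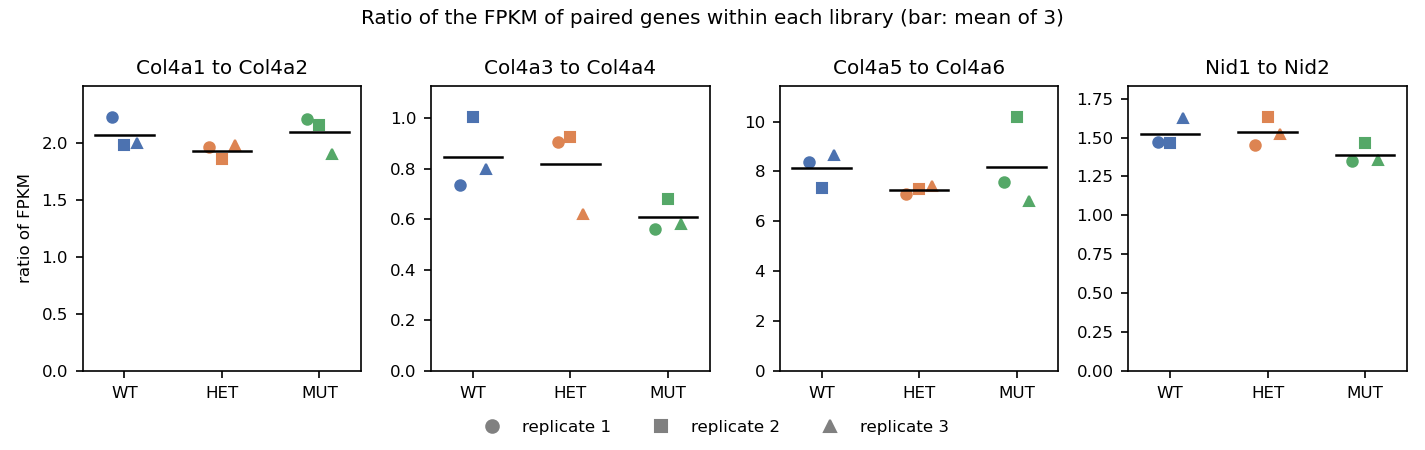
Ratio of FPKM within each library (vertical axes from 0) for *Col4a1* to *Col4a2*, *Col4a3* to *Col4a4*, *Col4a5* to *Col4a6* and *Nid1* to *Nid2*, with a marker shape for each replicate number and a bar for the mean of 3. *Col4a1* to *Col4a2* stays between 1.85 and 2.23, while *Col4a3* to *Col4a4* spans 0.563 to 1.01 and is lowest in MUT.

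The loci that followed each gene most closely were found by the s.d., over the 9 libraries, of the difference in log2(FPKM + 1), among 9977 loci with a mean of at least 5 FPKM. For *Col4a2* the nearest was *Col18a1* at 0.05 (the s.d. of *Col4a2* itself was 0.29), and for *Col18a1* it was *Col4a2*, followed by *Itga3* at 0.08. *Col4a1* (s.d. 0.35) was nearest to *Notch1* and *Abca2*, with *Col18a1* next, at 0.08 to 0.09. *Nid2* (0.24) was nearest to *Sipa1l2* at 0.025, *Nid1* (0.19) to *Tns3* at 0.04, *Col15a1* (0.33) to *Dlg5* at 0.07 and *Col4a5* (0.21) to *Snx29* at 0.05. All points share the same 9 libraries, so this is a description of likeness over them. Of the 7 genes tested, only *Col4a1*, *Col4a2* and *Col18a1* had another of the 10 genes among their 3 nearest loci.

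Other genes of the basement membrane were read from lists. Of 22 laminins and other structural components, 17 were tested in MUT against HET, with 10 log2 fold changes above 0, 7 below, a median of 0.06 and 0 without overlap. *Hspg2*, which encodes perlecan, was at 43.1, 20.4 and 29.2 FPKM in MUT and 21.3, 19.2 and 20.9 in HET (log2 fold change 0.51, SE 0.21, limma adjusted p=0.738). MUT-1 was well above the other MUT and HET libraries, and MUT-2 was within the HET range. In WT *Hspg2* was at 36.0, 29.5 and 16.4 FPKM, overlapping both. *Agrn*, the gene of the heparan sulfate proteoglycan agrin, gave 0.35 (SE 0.19, limma adjusted p=0.738).

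Of 9 basement membrane receptor genes, 7 were tested in MUT against HET and 7 were above 0, with a median of 0.26 and 0 without overlap. The largest were *Dag1*, which encodes dystroglycan, at 0.36, and *Itga1*, an integrin subunit that binds collagen, at 0.35, each with a limma adjusted p of 0.738. In MUT against WT 5 receptor genes were above 0 and 2 below, with a median of 0.04. In HET against WT 7 of 7 were below 0, with a median of -0.16. *Dag1* averaged 72.2 FPKM in MUT, 55.8 in HET and 64.2 in WT, and *Itga1* 8.45, 6.45 and 9.13. In MUT against HET, 10 of 12 matrix proteases and inhibitors were tested and 8 were above 0. Of these, 3 (*Mmp15*, *Mmp14* and *Timp2*, the last named after its values were seen) were higher without overlap. Over all loci these shares were 45.9% and 5.19%. *Mmp15*, a membrane-anchored metalloprotease, was at 17.0, 13.9 and 12.7 FPKM in MUT and 9.80, 9.01 and 10.9 in HET, without overlap (log2 fold change 0.50, SE 0.13, limma unadjusted p=0.00207, adjusted p=0.738). *Mmp14* gave 0.33 (limma unadjusted p=0.0149, adjusted p=0.738). Of 20 genes for collagen folding, secretion and crosslinking, 17 were tested, with 7 above 0, 10 below and a median of -0.02. By limma 0 were called (1 had an unadjusted p under 0.05), 0 were higher without overlap and 2 were lower without overlap, against 4.5% of all loci. These were *P4ha2*, a subunit of a collagen prolyl hydroxylase, at -0.26 (SE 0.10, limma unadjusted p=0.0335, adjusted p=0.738), and *Colgalt1*, a collagen galactosyltransferase, at -0.11 (SE 0.11, limma adjusted p=0.797), both named after their values were seen. The log2 fold changes of largest size were the crosslinking enzyme gene *Lox* at 0.37 and the prolyl hydroxylase gene *P3h2* at 0.32 (limma adjusted p=0.738 for both).

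**Figure D5:**
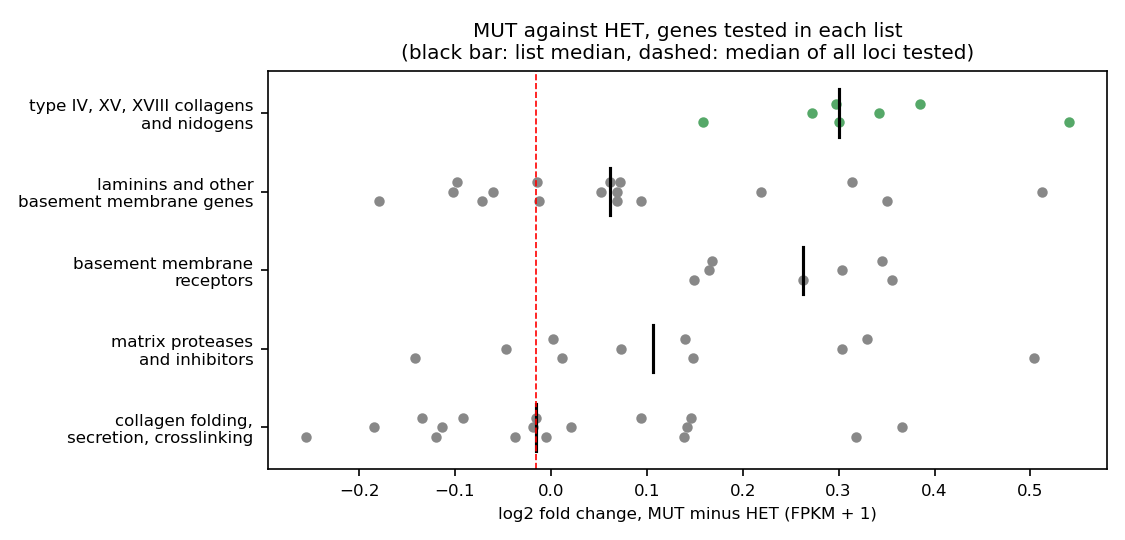
limma log2 fold change of MUT against HET on log2(FPKM + 1) (horizontal axis) for the tested genes of 5 lists, a point per gene, a black bar for the list median and a dashed line for the median of all loci tested (-0.02). The collagens and nidogens have a median of 0.30, receptors 0.26, proteases and inhibitors 0.11, laminins and others 0.06 and collagen folding genes -0.02.

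Markers of kidney cell types are given beside the collagen and nidogen values. Summed FPKM of 8 endothelial markers was 231, 237 and 225 in HET and 258, 237 and 232 in MUT, overlapping, with 6 of 8 above 0 and a median log2 fold change of 0.12. Of the 6 tested podocyte markers 6 were above 0, with a median of 0.22. Of 6 mural and smooth muscle markers 2 were above 0 and 4 below, with a median of -0.18. Of 7 ureteric epithelium markers 5 were above 0 (median 0.07), and of 4 nephron progenitor markers 3 were (median 0.13). Of all loci 45.9% were above 0 in MUT against HET. In MUT against WT 4 of 8 endothelial and 4 of 6 podocyte markers were above 0, with medians of 0.02 and 0.06. In HET against WT 8 of 8 and 6 of 6 were below 0, with medians of -0.09 and -0.24. Mural and smooth muscle medians were -0.01 in MUT against WT and 0.05 in HET against WT. For ureteric epithelium 6 of 7 markers were above 0 in both of these comparisons, with medians of 0.14 and 0.06. Nephron progenitor markers were above 0 for 4 of 4 in MUT against WT (median 0.15) and 2 of 4 in HET against WT (median 0.07). Of all loci 48.7% were above 0 in MUT against WT and 47.6% below 0 in HET against WT. Stromal marker sums ran from 274 to 307 over all 9 libraries. No cell type marker passed limma's adjusted threshold, and the part of cell composition in the collagen and nidogen values was not tested.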

How the data were processed

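RNA from whole E15.5 kidneys had been sequenced as stranded mRNA libraries. The authors aligned reads with STAR and computed FPKM with Cufflinks and Cuffdiff on mm10, and the deposited FPKM of each locus and library were used as given. Tool versions and the annotation are not given in the sources used here. No read counts were used, so the read depth is unknown and no counting error is given, and precision rests on 3 libraries per genotype. Whether these came from separate litters is not stated for each library. Columns of the authors' mean FPKM were not used.

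Tests used limma (version 3.58.1, R 4.3.3) with a trended prior variance on log2(FPKM + 1), for loci that averaged 5 FPKM or more in one of the genotypes compared, two-sided, with Benjamini-Hochberg adjustment over all loci tested and a threshold of 0.05. A fold change on this scale understates that of low genes. Each fit held just the 6 libraries of its own comparison and no replicate block. Transcript length and GC content came from GENCODE mouse release M21 (95.9% of loci matched), and promoter sequences from RefSeq. The limma fit of MUT against HET was tested on simulated log2 values with known increases and independent noise for each gene. The other steps were not simulated. Tables and figures used Python 3.11.15, pandas 2.3.3, numpy 2.4.6, scipy 1.17.1 and matplotlib 3.10.9. The genes, lists and alternatives were chosen with earlier results of these data known. Named genes were the 10 members, *Ntn1*, *Foxd1*, the 3 loci most like each member and the 2 genes of each list with the largest absolute log2 fold change in MUT against HET. *Timp2*, *P4ha2* and *Colgalt1* were named in addition, after their values were seen.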

Additional observations from a re-analysis of the deposited data

How the results depend on the processing

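MUT against HET was the only comparison in which the direction of all 7 tested genes held under every alternative run (pseudocounts, FPKM minimums, rescaling, all libraries in 1 fit, GC content and length corrections, no trend and each library left out). No alternative that kept all libraries called a locus in any comparison. Leaving out 1 library gave 0 to 3 called loci in each of the 3 comparisons, with 3 without MUT-3 in MUT against HET, 3 without WT-1 in MUT against WT and 3 without WT-2 in HET against WT, and 1 or 2 without HET-1 or MUT-2, without WT-2 or MUT-2, and without WT-3 or HET-3 in the same order of comparisons. None was among the 7 genes. The median of the 7 ranged from 0.20 to 0.41 in MUT against HET, from -0.022 to 0.37 in MUT against WT and from -0.35 to 0.063 in HET against WT. Genes whose direction turned in MUT against WT were *Col4a1* (-0.074 to 0.41), *Col4a2* (-0.063 to 0.34), *Col4a5* (-0.078 to 0.13), *Col18a1* (-0.0050 to 0.41) and *Nid1* (-0.027 to 0.22), and the GC content and length correction gave -0.014 for *Col4a5*, with or without a replicate block. In HET against WT they were *Col4a1* (-0.46 to 0.027), *Col4a2* (-0.33 to 0.069), *Col18a1* (-0.35 to 0.072), *Nid1* (-0.18 to 0.063) and *Nid2* (-0.24 to 0.069). The cause was not tested. MUT and WT did not overlap for 2 genes without WT-1. Without WT-3, 6 of the 7 genes were lower in all HET than in the remaining WT libraries. The share of all loci was computed for neither. The 3 loci nearest to *Col4a3*, *Col4a4* and *Col4a6* all changed with a pseudocount of 0.1.

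Whether replicate numbers pair the libraries is not stated. Deviations from the genotype mean of same-numbered libraries correlated at -0.13 on average for HET and MUT (-0.32 to 0.06), at -0.02 for WT and HET (-0.19 to 0.17) and at 0.09 for WT and MUT (-0.26 to 0.56). No genotype pair had all 3 same-number correlations above 0.1. Averages for different numbers were 0.07, 0.01 and -0.04. The deviations within a genotype sum to 0, which ties these averages to the same-number ones, so they are not a separate baseline. With the number as a replicate block, limma called 0 loci in each comparison, and loci at an unadjusted p under 0.05 numbered 494 in MUT against HET, 201 in MUT against WT and 233 in HET against WT. Read depth is unknown, so no counting error can be given for *Col4a3* and *Col4a4* at about 1 FPKM.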
